A study of Mus musculus with 2 samples.

Results

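The 10 genes described here are *Myc* and *Mycn*, the RNA-binding genes *Lin28a* and *Lin28b*, and 6 further genes known for their regulation by the let-7 microRNAs, namely *Trim71*, *Hmga1*, *Hmga2*, *Igf2bp1*, *Igf2bp2* and *Igf2bp3*. They were chosen by name, among 21935 gene symbols in the files, and where a symbol had several transcript entries the entry with the highest mean level was taken. The study asked what the H3K4 demethylase KDM5B contributes to gene expression as embryonic stem (ES) cells differentiate. PolyA RNA was sequenced from R1 ES cells, an established mouse line, carrying a lentiviral short hairpin RNA against luciferase (shLuc, the control) or against *Kdm5b* (shKdm5b). Both cultures were puromycin-selected, grown on irradiated mouse embryonic fibroblast feeders with LIF, and then kept for 72 h without LIF. The labels give low attachment dishes for differentiation and the methods also name gelatin-coated ones, so which was used for these libraries is uncertain. There was 1 library per condition, so no difference below has a replicate check, and library and condition cannot be told apart.

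LIN28 proteins bind the precursors of let-7 and block their maturation, and uridylyl transferases recruited by LIN28A add a uridine tail that marks the precursor for decay. Mature let-7 represses messenger RNAs that pair with its seed, among them *Lin28a* and *Lin28b* themselves, so that each side can repress the other. Many of these genes are high in ES cells or early embryos and decline as cells mature, when let-7 accumulates. MYC proteins, encoded by genes that include *Myc* and *Mycn*, drive ribosome production and growth and can activate the *Lin28* genes. *Mycl1*, a further *Myc* gene expressed in both libraries, is described below with the MYC and MAX network.

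The sequences that tie these genes together are the let-7 seed and its matches in the 3′ untranslated regions (UTRs). All 11 let-7 and miR-98 loci with a mature 5′ arm in RefSeq (GRCm38.p6) gave the same seed at bases 2 to 8, shown here in capitals in 5 of the 9 different names to make plain that the family differs only outside it.
let-7a-5p: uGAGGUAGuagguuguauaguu
let-7d-5p: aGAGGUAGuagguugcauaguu
let-7g-5p: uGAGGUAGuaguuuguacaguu
let-7i-5p: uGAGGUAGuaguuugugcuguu
miR-98-5p: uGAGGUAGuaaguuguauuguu

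LIN28 proteins are known to contact a GGAG stretch of the precursor's loop. These letters stood between the annotated arms in 8 of the 11 hairpins with both arms annotated. The hairpins of let-7g (chr9:106178840-106178927, plus strand), which has the stretch (capitals), and let-7b (chr15:85707319-85707403, plus strand), which does not, are shown as an example of each.
let-7g hairpin: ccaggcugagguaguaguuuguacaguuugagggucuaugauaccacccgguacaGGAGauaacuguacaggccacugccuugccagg
let-7b hairpin: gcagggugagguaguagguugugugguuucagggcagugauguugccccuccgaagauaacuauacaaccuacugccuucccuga

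The sense strand of the 3′ UTRs in the GENCODE M21 annotation was searched for CTACCTCA (8mer), for CTACCTC without the closing A (7mer-m8) and for TACCTCA without the leading C (7mer-A1), each place being counted once under its longest form. Of the 10 genes, 7 had an 8mer and 9 had a match of any kind, with 13 8mers and 31 matches in all. Over all 18877 3′ UTRs, 2.82% had an 8mer and 13.3% any match. The genes were picked as let-7 targets, so this difference was built into the choice. The first 8mer of each of the 7 genes is shown with its neighbours, with the match in capitals and the position counted from the first base after the stop codon.
Lin28a, position 909: agcctgttgaaCTACCTCAtttttgccgat
Lin28b, position 36: gggcgggaagtCTACCTCAtgcaagcacag
Trim71, position 166: ttgcctaagtcCTACCTCAgcttaaatttt
Hmga2, position 21: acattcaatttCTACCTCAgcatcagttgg
Igf2bp1, position 1715: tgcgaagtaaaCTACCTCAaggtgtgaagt
Igf2bp2, position 1313: acaaataaaagCTACCTCAggtgtttttta
Igf2bp3, position 548: tttttactcaaCTACCTCAggtattcagta

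The libraries held 78172698 aligned 50-base reads (shLuc) and 72702698 (shKdm5b), of which 67.9% and 66.3% lay on the entries used. Levels are given as RPKM, reads scaled to the length of the transcript and to the library total, which allows genes to be compared per length. Differences are log2 ratios, shKdm5b over shLuc, of RPKM values with 0.1 added to each. Its 95% interval comes from the read numbers alone by the exact Clopper-Pearson method. It covers counting error only, and reads copied by PCR are not independent molecules. Reads at distinct places made up 20.1% of the total in shKdm5b and 32.9% in shLuc, and PCR copies and reads from abundant transcripts cannot be told apart in this share. A gene was called higher or lower when its levels differed more than 1.5-fold and exceeded 1 RPKM in at least 1 library. *Kdm5b* itself stood at 104 RPKM in shLuc and 3.01 RPKM in shKdm5b, 2.88% of the control.

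Among all 11804 symbols above 1 RPKM in at least 1 library, 48.3% were called, 16.3% as higher and 32% as lower in shKdm5b, and their median log2 ratio was -0.21. The ratio also ran with base composition, with a Spearman correlation of -0.54 with GC content and -0.13 with length across 11592 genes, which share both libraries. Each gene is therefore also set beside genes within 2 percentage points of its own GC content. Whether composition or the share of distinct places contributed to any single difference was not tested. Of the 10 genes, 4 were called: *Hmga2* and *Igf2bp2* were higher and *Trim71* and *Igf2bp1* lower in shKdm5b. The median log2 ratio of the 10 was -0.34, beside -0.22 for the 14773 symbols with a mean above 0.1 RPKM. The share called, 4 of 10, lies near the background of 48.3%. Under TMM scaling, which moves log2 ratios by 0.22 apart from those of genes near the 0.1 RPKM added, the same genes were called, with *Hmga2* at 2.12, *Igf2bp2* at 1.30, *Trim71* at -1.06 and *Igf2bp1* at -0.71, beside 47.2% of all symbols (24.1% higher, 23.2% lower). After correction for GC content 5 were called, the same 4 and *Lin28b*, beside 36.8% of symbols (19% higher, 17.8% lower). After correction for GC and length 4 were called, with *Lin28b* in place of *Igf2bp1*, beside 32% (15.5% higher, 16.5% lower).

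Other thresholds left no more than 4 of the 10. For the counts with edgeR below, a gene had to pass the fold and RPKM thresholds and also an FDR below 0.001. At a fold above 2, *Hmga2*, *Igf2bp2* and *Trim71* were called, beside 22.8% of all symbols, and at RPKM above 11, *Trim71*, *Igf2bp1* and *Igf2bp2*, beside 47.6%. In edgeR's exact test, which with single libraries compares the libraries and needs an assumed dispersion, 4 were called at a dispersion of 0 (47% of symbols), 1 at 0.04 (2.3%, with *Hmga2* the gene called) and 0 at 0.16 (0.00847%).

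**Figure D1:**
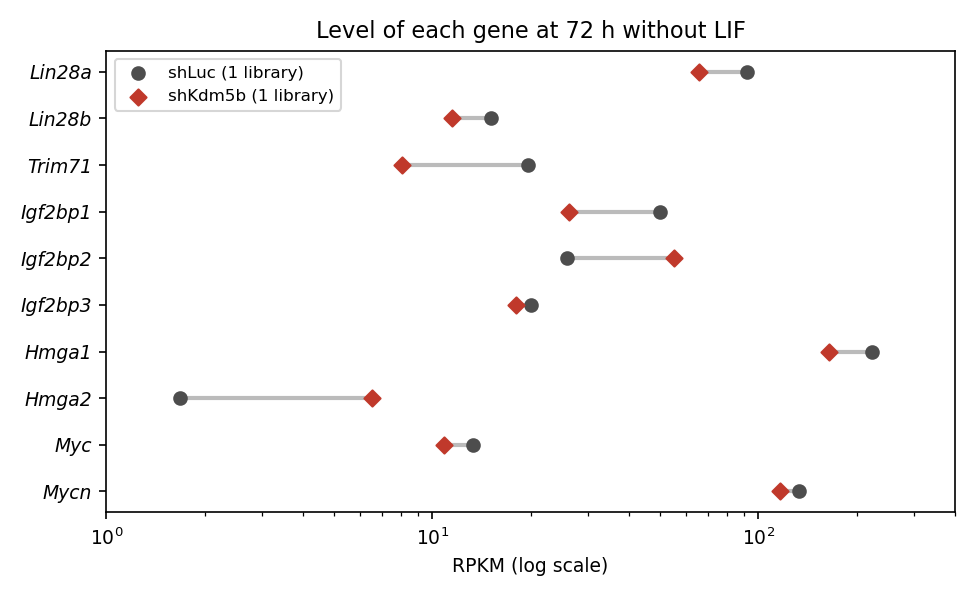
Level of each of the 10 genes in RPKM (log axis) in the single shLuc and the single shKdm5b library. *Hmga2*, at 1.68 and 6.53 RPKM, was the lowest in both, and *Hmga1*, at 223 and 164 RPKM, the highest.

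The *Lin28* genes, which encode the inhibitors of let-7 maturation, were expressed in both libraries and neither passed the fold threshold. *Lin28a*, the cytoplasmic form that recruits the uridylyl transferases, measured 92.1 RPKM in shLuc (25065 reads) and 65.8 RPKM in shKdm5b (16657 reads), a log2 ratio of -0.48 (interval -0.51 to -0.46). *Lin28b*, its paralog, measured 15.1 RPKM (6374 reads) and 11.5 RPKM (4511 reads), a log2 ratio of -0.39 (interval -0.45 to -0.34). The levels in the knockdown library were 1.40-fold and 1.31-fold below the control, and *Lin28a* supplied nearly the same share of the pair's RPKM in each, 85.9% in shLuc and 85.1% in shKdm5b. In order of RPKM among all symbols, *Lin28a* was at rank 505 in shLuc and 917 in shKdm5b. On GRCm38 *Lin28a* lies on chromosome 4 from 134003330 to 134018841 and *Lin28b* on chromosome 10 from 45376620 to 45486395, both on the minus strand.

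The paralogs stood differently to genes of their own composition. *Lin28a*, with 50.1% GC, was below the median of -0.24 of such genes but had 34.6% of them beneath it. *Lin28b* had the lowest GC content of the 10, 40.6%, and genes like it had a median log2 ratio of 0.42, above that of *Lin28b* in 91.9% of cases. Once the ratio was corrected for GC content, *Lin28b* reached -0.83 and was called lower, and it was called lower again, at -0.64, when length was corrected too. The *Lin28a* 3′ UTR, of 2775 bases, held 2 8mers. Of the 2341 3′ UTRs within 25% of its length, its own included, 0.256% hold as many. The *Lin28b* 3′ UTR of 4445 bases held 1 8mer, 3 7mer-m8 and 1 7mer-A1 matches.

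*Trim71*, also called Lin41, encodes a ubiquitin ligase and RNA-binding protein of early embryos and is the classical let-7 target. It measured 19.7 RPKM in shLuc (7982 reads) and 8.08 RPKM in shKdm5b (3050 reads). This 2.43-fold lower level (log2 ratio -1.27, interval -1.34 to -1.22) was the largest decrease among the 10 genes before correction. It moved *Trim71* from rank 3251 to rank 5592 of all symbols. It lay below 88.1% of the genes of like GC content, whose median was -0.52. After the GC correction it stood at -0.78 and after GC and length at -0.59, which is just past the threshold. In both forms *Lin28b* was lower, at -0.83 and -0.64. The *Trim71* 3′ UTR held the most 8mers of the 10, with 4 in 5512 bases. This number was reached by 0.135% of the 741 3′ UTRs of similar length, its own included. The deposited entry spans 5190 bases and the GENCODE transcript 9332 bases, so the counted entry did not cover the whole annotated transcript on chromosome 9 (114507133 to 114564369, minus strand).

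The *Igf2bp* genes encode RNA-binding proteins that stabilise and localise messenger RNAs and are active chiefly before birth. The 3 paralogs did not move together. *Igf2bp1* was lower in shKdm5b, with 50.1 RPKM in shLuc (32795 reads) and 26.2 RPKM in shKdm5b (15966 reads), a 1.91-fold difference (log2 ratio -0.93, interval -0.96 to -0.91). *Igf2bp2* was higher, with 25.9 RPKM in shLuc (7897 reads) and 55.0 RPKM in shKdm5b (15601 reads), a 2.12-fold difference (log2 ratio 1.08, interval 1.05 to 1.13). *Igf2bp3* measured 20.02 RPKM (6803 reads) and 18.0 RPKM (5697 reads), which is a log2 ratio of -0.15 (interval -0.20 to -0.10) and was not called.

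In unscaled RPKM the summed level of the family hardly differed, at 96.0 in shLuc and 99.3 in shKdm5b, while its leading member changed places. TMM scaling raises the shKdm5b sum by 0.22 on the log2 scale and leaves the shares as they are, so the near-equal sums hold only without scaling. After GC correction, where the sum was not taken, *Igf2bp1*, *Igf2bp2* and *Igf2bp3* had log2 ratios of -0.66, 1.39 and -0.27. *Igf2bp1* supplied 52.1% of the sum in shLuc and 26.4% in shKdm5b. *Igf2bp2* supplied 27.0% and 55.4%. *Igf2bp3* supplied 20.9% and 18.2%. At these read numbers the counting intervals of the shares do not overlap between the libraries for any of the 3 genes, the uncalled *Igf2bp3* included. The same holds for the *Hmga2* share. It also holds for the *Lin28a* share, which hardly differed (85.59% to 86.26% in shLuc, 84.72% to 85.56% in shKdm5b). The intervals of the *Myc* and *Mycn* shares overlap. Such intervals cover counting error only, and how often they fail to overlap in other gene families was not counted.

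**Figure D2:**
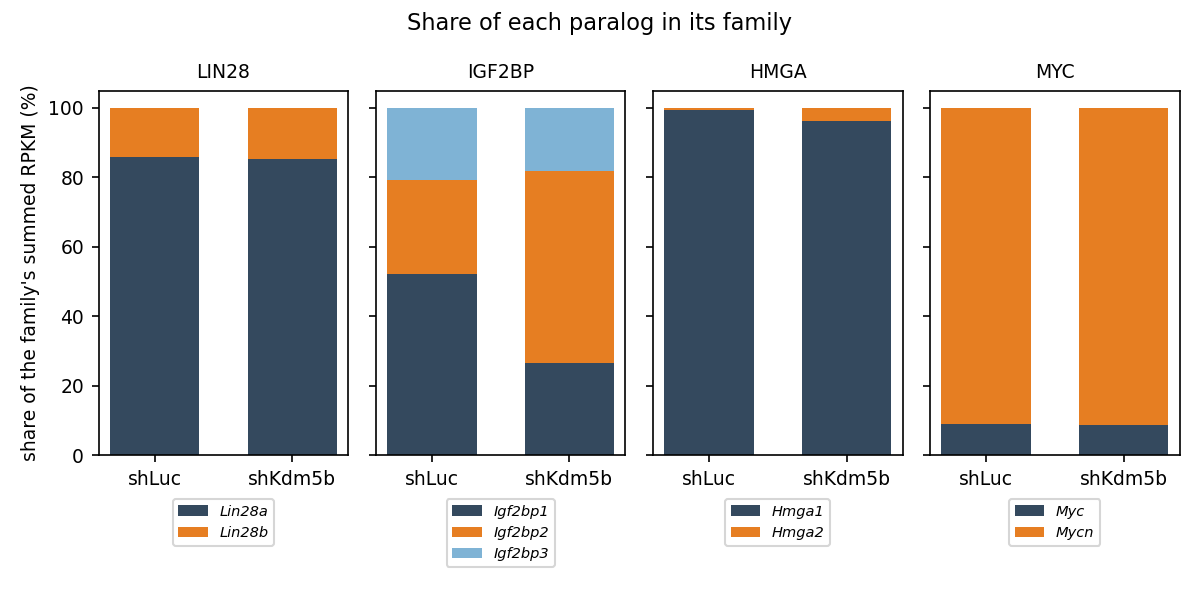
Share of each paralog in the summed RPKM of its family, as stacked bars for the shLuc and the shKdm5b library. *Igf2bp1* and *Igf2bp2* exchange the leading place, from 52.1% and 27.0% to 26.4% and 55.4%, while the *Lin28*, *Myc* and *Hmga* pairs each keep their leading gene. The *Myc* pair is *Myc* and *Mycn*, without *Mycl1*.

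Of the called pair, *Igf2bp2* stood further from its peers. It lay above 96.3% of genes of like GC content (median -0.33), and its log2 ratio was 1.39 after the GC correction and 1.54 after GC and length. *Igf2bp1* lay below 85.4% of its peers (median -0.29), stayed called at -0.66 after the GC correction, and at -0.38 was not called once its length of 8381 bases was corrected for as well. Both carry let-7 matches, with 3 8mers in the 6337-base 3′ UTR of *Igf2bp1* and 1 8mer in the 1784 bases of *Igf2bp2*, so opposite differences occurred in genes that each hold an 8mer. *Igf2bp1* lies on chromosome 11 (95957163 to 96005940), *Igf2bp2* on chromosome 16 (22059009 to 22163299) and *Igf2bp3* on chromosome 6 (49085223 to 49214957), all on the minus strand.

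The *Hmga* genes encode small architectural proteins that bind AT-rich DNA in the minor groove. *Hmga2*, a textbook let-7 target that is low in undifferentiated ES cells, had the largest ratio of the 10. It measured 1.68 RPKM in shLuc (547 reads) and 6.53 RPKM in shKdm5b (1984 reads), 3.90-fold higher, with a log2 ratio of 1.90 (interval 1.83 to 2.10). It was above 99.5% of genes of like GC content, whose median was 0.13, and moved from rank 10579 to rank 6296. Corrections for GC, and for GC and length, left it at 1.76 and 1.90. Its 3′ UTR of 2977 bases held 7 matches, 1 of them an 8mer, 21 bases after the stop codon. Of the 2231 3′ UTRs of similar length, its own included, 0.0896% hold as many. The gene lies on chromosome 10 from 120361275 to 120476469 on the minus strand.

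*Hmga1* was far more abundant and was not called. It measured 223 RPKM in shLuc (28669 reads) and 164 RPKM in shKdm5b (19639 reads), a log2 ratio of -0.44 (interval -0.47 to -0.41). Its 59.8% GC was the highest of the 10, and genes like it had a median of -0.84, below that of *Hmga1* in 72.6% of cases, so that the sign turned to 0.41 after the GC correction. *Hmga2* made up 0.746% of the summed RPKM of the pair in shLuc and 3.82% in shKdm5b. With all entries of each symbol summed, of which *Hmga1* has 14 that share their reads, that share differed by 0.229 points instead of 3.08. The 14 entries of *Hmga1* gave log2 ratios between -0.46 and -0.44. The methods state that reads with several genomic places were dropped from the ChIP-Seq data and do not state it for RNA-Seq, so the level of *Hmga1* is uncertain. *Hmga1* lies on chromosome 17 (27556497 to 27563674, plus strand), and its 3′ UTR held 1 7mer-m8 match.

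*Mycn*, the more abundant of the *Myc* genes here, measured 133 RPKM in shLuc (27078 reads) and 116 RPKM in shKdm5b (21966 reads). This log2 ratio of -0.20 (interval -0.22 to -0.17) was not called. *Myc* measured 13.3 RPKM (2491 reads) and 10.8 RPKM (1884 reads), a log2 ratio of -0.30 (interval -0.39 to -0.21), and was also not called. Both ratios sat close to the median of all genes. *Mycn* kept 90.9% and 91.5% of the summed RPKM of *Myc* and *Mycn*, a sum that leaves out *Mycl1*. The signs were not stable: TMM scaling put *Mycn* at 0.02 and *Myc* at -0.08, and the GC correction put them at 0.38 and 0.17. *Igf2bp3* likewise turned to 0.07 under TMM scaling. *Mycl1* measured 18.5 RPKM in shLuc, more than *Myc*, and 9.53 RPKM in shKdm5b. Its log2 ratio of -0.95 was called lower, but at -0.32 after GC correction it was not called. The *Myc* 3′ UTR of 442 bases held no match to the seed and that of *Mycn* held 2 7mer-A1 matches. *Myc* lies on chromosome 15 (61985391 to 61990374, plus strand) and *Mycn* on chromosome 12 (12936093 to 12941914, minus strand).

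**Figure D3:**
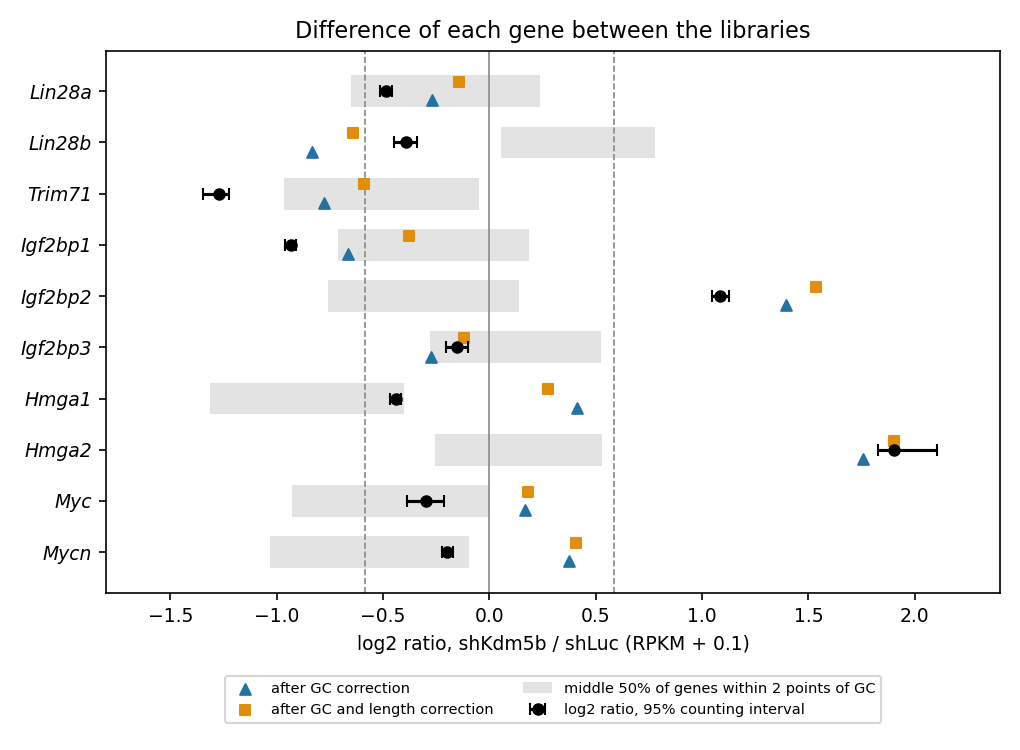
Log2 ratio of shKdm5b to shLuc for each gene (black, with its 95% counting interval), the same after correction for GC content (blue triangles) and for GC and length (orange squares), and the middle 50% of genes within 2 points of its GC content (grey). The grey bars hold uncorrected ratios, so only the black points compare with them. By those points *Hmga2* and *Igf2bp2* lie to the right of their bars, and *Lin28b*, *Trim71* and *Igf2bp1* to the left. Dashed lines stand at 1.5-fold.

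The let-7 genes themselves could not be followed. Of 12 let-7 and miR-98 entries in the files, 9 had 0 reads in both libraries, and the other 3 held 7 reads in shLuc and 5 in shKdm5b in all. *Mirlet7d* had 6 and 3 reads, *Mirlet7e* 1 and 0, and *Mirlet7f-1* 0 and 2. These entries are hairpins of 83 to 108 bases, and a polyA library of sonicated cDNA does not measure the mature microRNA, so the let-7 level in these cells was not measured here.

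The proteins that make, modify or use let-7 were taken as a list of 21 genes, of which 19 passed the level threshold. Of these, 3 were called higher and 8 lower, and the median log2 ratio over the 21 was -0.41, beside 16.3% higher, 32% lower and a median of -0.22 over all symbols. Core processing genes were among the lower ones: *Dgcr8*, the partner of Drosha, at -1.13, *Tarbp2*, the partner of Dicer, at -1.08, *Xpo5*, which exports precursors from the nucleus, at -0.86, and *Dicer1* at -0.60. The effector genes *Eif2c1* (an Argonaute) and *Tnrc6a* stood at -0.84 and -0.69, and *Tnrc6c* at -0.59. *Dis3l2*, the nuclease that degrades uridylated pre-let-7, stood at -0.70. *Drosha* at -0.41 was not called. Several of these calls were lost in other forms: *Tarbp2*, *Dis3l2* and *Tnrc6c* after GC correction (-0.35, -0.32 and -0.17), *Dicer1*, *Tnrc6a*, *Dis3l2* and *Tnrc6c* under TMM scaling (-0.38, -0.48, -0.48 and -0.38), and *Xpo5* and *Eif2c1* after GC and length (-0.49 and -0.34).

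The uridylyl transferases differed from each other. *Zcchc11* (TUT4), the enzyme that LIN28A recruits to pre-let-7, measured 15.1 RPKM in shLuc and 29.9 RPKM in shKdm5b, a log2 ratio of 0.98. *Zcchc6* (TUT7) measured 5.85 and 5.48 RPKM, a log2 ratio of -0.09. *Papd4*, another terminal transferase, was higher at 0.59, as was *Hnrnpa1*, a binder of primary let-7, at 0.84, though many processed copies of *Hnrnpa1* make its count uncertain. Under TMM scaling 5 of the list were higher and 4 lower, beside 47.2% of all symbols called. After GC correction 4 were higher and 5 lower, beside 36.8%, and *Papd4* was not called, at 0.10. After GC and length 3 were called in all, beside 32%, *Dgcr8* lower and *Zcchc11* and *Msi1* higher. *Dgcr8* was called lower and *Zcchc11* higher in each of these forms.

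A further 38 known or predicted let-7 targets gave 33 genes above the level threshold, of which 3 were called higher and 9 lower, with a median of -0.23, beside 16.3% and 32% of all symbols and their median of -0.22. Among cell cycle and growth genes, *Ccnd1* (cyclin D1) stood at -0.93 and *Cdc34*, an E2 enzyme, at -0.89, while *Ccnd2* at -0.54 was not called. *Nras*, a small GTPase of growth signalling, measured 45.2 and 33.9 RPKM, a log2 ratio of -0.42 that was not called. It was called lower after GC correction, at -0.74, but not after GC and length, at -0.58. *Abcc5* at -1.12, the phosphate transporter *Slc20a1* at -1.11 and the zinc finger gene *Hic2* at -0.79 were also called lower. *Map4k3* and *Plagl1* were higher at 1.02 and 0.84. Under TMM scaling the list had 6 higher and 4 lower genes, and after the GC correction, among 32 genes with a GC value, 2 and 7, beside 47.2% and 36.8% of all symbols called. *Cdc34* turned to 0.08 after GC correction and *Hic2* to -0.25, neither called, and *Hic2* was not called under TMM scaling either. *Ccnd1* was not called after GC and length, at -0.51.

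**Figure D4:**
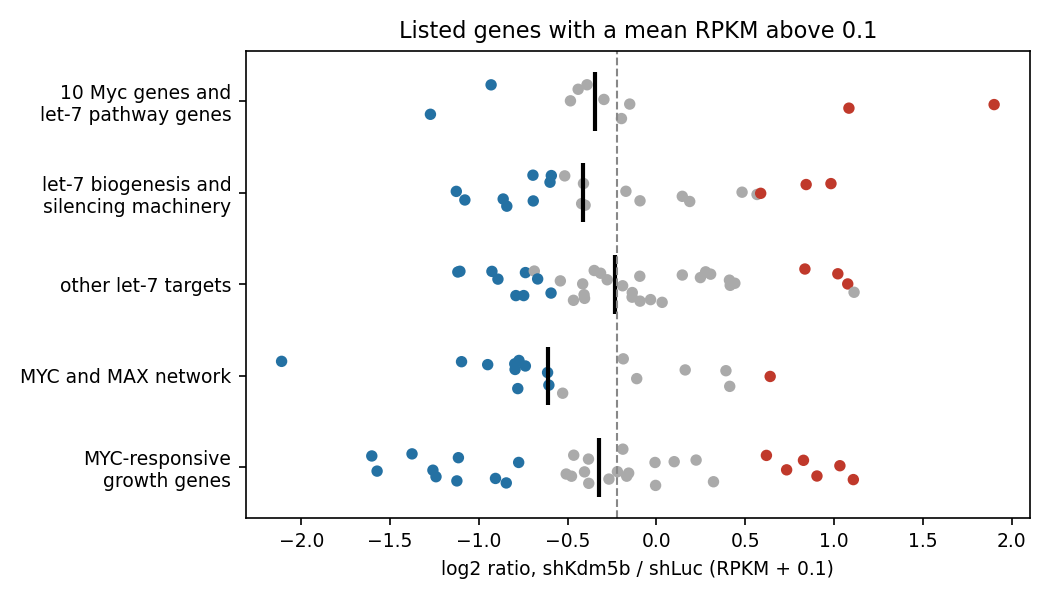
Log2 ratio of shKdm5b to shLuc for each gene of the 10 described here and of the 4 pathway lists, with genes called higher in red, lower in blue and others in grey, the list median as a black line and the median of all symbols dashed. The medians of the 4 lists run from -0.61 (MYC and MAX network) to -0.23 (other let-7 targets), beside -0.22 for all symbols.

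Over all genes above the level threshold, the medians were set out by seed match. The median log2 ratio was -0.20 over 9479 genes with no match, -0.25 over 1316 with 7mers only, -0.30 over 351 with a single 8mer and 0.13 over 21 with 2 or more 8mers. After GC correction these medians were 0.02, -0.18, -0.18 and 0.01, and after GC and length 0.01, -0.08, -0.07 and 0.05. Without a match 31.1% of genes were called lower and 16.8% higher, and with a single 8mer 35.9% and 11.4%. The 10 genes were spread over these classes, with *Myc* without a match, *Mycn* and *Hmga1* with 7mers only, *Hmga2*, *Igf2bp2*, *Igf2bp3* and *Lin28b* in the single 8mer class and *Trim71*, *Igf2bp1* and *Lin28a* in the class with more. Classes differed in 3′ UTR length as well, from a median of 830 bases without a match to 4769 with 2 or more 8mers.

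**Figure D5:**
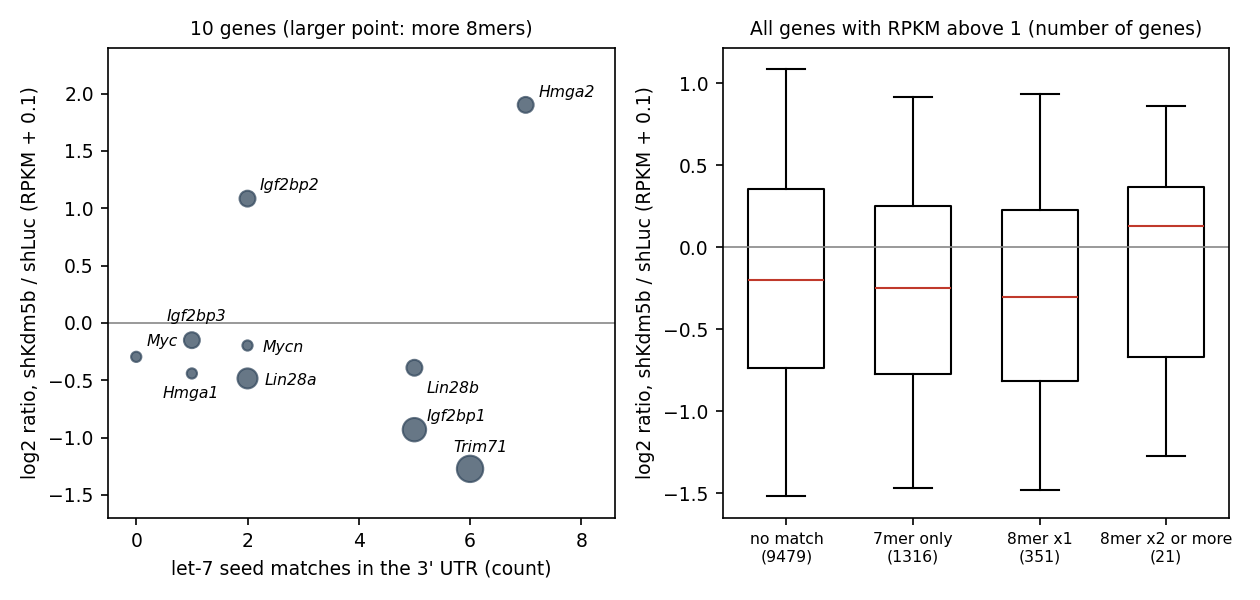
Log2 ratio of shKdm5b to shLuc against the number of let-7 seed matches in the 3′ UTR for each of the 10 genes (left), and for all genes by class of match (right; median, middle 50% and whiskers from the 5th to the 95th percentile). In these uncorrected ratios *Hmga2*, with 7 matches, is the highest at 1.90 and *Trim71*, with 6, the lowest at -1.27. The genes with most matches thus lie at opposite ends of the panel. After correction for GC, and for GC and length, *Lin28b*, with 5 matches, is the lowest, at -0.83 and -0.64.

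MYC proteins act with MAX, and the MXD proteins, MNT and MGA compete for it. Of 17 genes of this network, all above the level threshold, 1 was called higher and 10 lower, with a median of -0.61, beside 16.3% higher, 32% lower and a median of -0.22 over all symbols. *Mxd4*, a MYC antagonist, measured 4.11 RPKM in shLuc and 0.875 RPKM in shKdm5b, the lowest ratio of the list at -2.11, and *Mxd3* was the called higher gene at 0.64. The third *Myc* gene, *Mycl1*, measured 18.5 and 9.53 RPKM, a log2 ratio of -0.95, and *Zbtb17* (MIZ1) stood at -1.10. The sensor genes *Mlxipl* and *Mlx* both stood at -0.80, *Mxd1* at -0.78 and *Mnt* at -0.61. *Max* itself at 0.39, *Mxi1* at -0.11 and *Mga* at -0.53 were not called. In other forms *Max* was called higher under TMM scaling, at 0.61, and *Mga* lower after GC correction, at -0.88. Under TMM scaling 3 were higher and 4 lower, and after GC correction 2 and 5, with *Mxd4* lower and *Mxd3* higher in both, at -1.54 and 1.35 in the latter. *Mnt* turned to 0.22 after GC correction, and *Mlxipl*, *Mycl1*, *Zbtb17* and *Mxd1* were no longer called, at -0.15, -0.32, -0.31 and -0.56. Under TMM scaling *Mlx*, *Mxd1* and *Mnt* were not called. The all-symbol shares were 47.2% under TMM and 36.8% after GC.

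Of 32 growth genes known to respond to MYC, all above the level threshold, 6 were called higher and 10 lower, with a median of -0.32. These shares lie near the 16.3% higher and 32% lower of all symbols. The higher genes were the nucleolar genes *Npm1* at 1.11, *Nop58* at 0.83, *Gnl3* at 0.73 and *Ncl* at 0.62, the chaperonin *Hspe1* at 1.03 and the cap-binding gene *Eif4e* at 0.90. The lower genes were led by *Polr1b*, a subunit of RNA polymerase I, at -1.60, the pyrimidine enzyme *Cad* at -1.57, the ribosome assembly genes *Bop1* at -1.38 and *Ppan* at -1.24, *Tert* at -1.26 and the purine enzyme *Gart* at -1.12. *Odc1*, at -0.47, and *Ldha*, at 718 and 716 RPKM, were not called. After GC correction 2 were higher and 6 lower, beside 36.8% of all symbols called, with *Npm1* and *Hspe1* the higher ones and *Ppan* no longer called, at -0.40. After GC and length 1 was higher, *Hspe1*, and 4 lower, among them *Polr1b*, *Cad* and *Tert* but not *Bop1* or *Gart*. *Npm1*, *Eif4e* and *Ldha* have many processed copies in the genome that can take or give reads.

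The labelled cell type was checked against its markers. All 10 ES cell markers exceeded 1 RPKM in both libraries, with sums of 3072 and 3179 RPKM, but *Pou5f1* stood at 619 and 182 RPKM and *Esrrb* at 80.5 and 41.2 RPKM, both called lower. *Dppa5a* was called higher, and *Sox2*, *Nanog*, *Zfp42*, *Klf4*, *Tdgf1*, *Utf1* and *Sall4* lay between -0.29 and 0.33 on the log2 scale. After GC correction *Esrrb* was no longer called, at -0.30, and *Klf4* and *Utf1* were called higher, at 0.75 and 0.68. After GC and length *Esrrb*, *Dppa5a* and *Utf1* were not called, at -0.15, -0.04 and 0.30. *Pou5f1* stayed called lower in both, at -1.02 and -1.29. Endoderm markers summed to 5.65 RPKM in shLuc and 1.20 RPKM in shKdm5b, with *Gata4* and *Gata6* called lower. Mesoderm markers summed to 2.90 and 4.66 RPKM, neuroectoderm markers (led by *Nes*, *Pax6* and *Sox1*) to 5.60 and 8.004 RPKM, and trophoblast markers, 4 of 5 found in the files, to 0.854 and 1.30 RPKM. Of these, *Eomes*, *Nes* and *Krt7* were called higher. The other trophoblast markers found, *Cdx2*, *Hand1* and *Elf5*, were all below 1 RPKM in both libraries. They held 16 and 10, 15 and 12, and 2 and 0 reads, and their counting intervals include 0, so no direction is given for them. Among the other mesoderm markers, also below 1 RPKM, *T* was higher (interval 1.85 to 4.59). The intervals of *Mesp1*, *Mixl1* and *Kdr* include 0. The part of such differences in cell make-up in the ratios of *Hmga2*, *Igf2bp2*, *Trim71* and *Igf2bp1* was not tested, and in bulk RNA fewer cells of a type and less RNA per cell cannot be told apart.

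Markers of fibroblasts, the feeder cells, were also set beside each other, and most of the difference in their sum lay in *Twist1*. Of the 10 fibroblast markers 2 exceeded 1 RPKM, *Thy1* at 4.08 and 4.59 RPKM and *Twist1* at 1.95 and 7.05 RPKM, the latter called higher, and the list summed to 7.39 and 13.5 RPKM. The median log2 ratio over the 6 with a mean above 0.1 RPKM was 0.46, with 5 of 6 above 0, and after GC correction 3 were called, all higher. *Dcn* measured 0.121 and 0.330 RPKM and *Pdgfrb* 0.501 and 0.819 RPKM. Among the collagens, *Col1a1* stood at 0.474 and 0.395 RPKM, *Col1a2* at 0.142 and 0.201 RPKM and *Col3a1* at 0.0345 and 0.0420 RPKM. The counting intervals of *Thy1* and these collagens include 0, and those of *Twist1*, *Dcn* and *Pdgfrb* lie above it. *Postn* had 3 reads in shLuc and 0 in shKdm5b. The part of these markers in the ratios of the 10 genes was not tested.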

How the data were processed

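R1 ES cells carrying shLuc or shKdm5b were profiled by polyA RNA-Seq after 72 h without LIF, with 1 library per condition. The submitters' processing notes name CASAVA 1.0, Bowtie 0.12.7 and the mm8 build, and the counting program is not given in the sources used here. The authors deposited, per transcript entry, a whole-number read count, its length and an RPKM value, together with the aligned reads on mm8. The deposited RPKM values equalled count, length and library total combined, and the aligned reads served only for depth and duplication. A further column of small whole numbers, whose meaning is not stated, was not used. Counts on entries came from 27405 entries for 21935 symbols, 3547 of them with several entries.

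Log2 ratios used RPKM plus 0.1, with exact Clopper-Pearson 95% counting intervals. Calls required a fold change above 1.5 and RPKM above 1 in at least 1 library. An FDR needs a dispersion that 1 library per condition cannot give. EdgeR's exact test, with TMM factors, therefore ran only as an alternative at assumed dispersions of 0, 0.04 and 0.16. It compares the libraries, not the conditions. A call there needed an FDR below 0.001 besides the fold and RPKM thresholds. Other alternatives were TMM, DESeq2 and 75th percentile scaling, pseudocounts of 1 and 0.01, a fold above 2, RPKM above 11, summed entries, and lowess corrections (fraction 0.3) for GC and for GC and length. GC content and 3′ UTRs came from GENCODE M21 (GRCm38), matched to 97.5% of symbols. Its coordinates describe the genes, not the mm8 alignments. MicroRNA sequences were from RefSeq. R 4.3.3, edgeR 4.0.16, DESeq2 1.42.0, Python 3.11.15, NumPy 2.4.6, pandas 2.3.3, SciPy 1.17.1 and statsmodels 0.14.6 were used, and the procedures were tested on simulated data.

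The genes and the 4 pathway and 6 marker lists were chosen with earlier results of these data known. Named in the text were the 10 genes and *Kdm5b*, the called list genes (up to the 6 largest in each direction), a set of listed genes whatever their value, let-7 entries with reads and markers above 1 RPKM. *Tnrc6c*, *Msi1*, *Dcn*, *Pdgfrb*, collagens and *Postn* were named beyond this rule after their values were seen. Some genes that this rule would name are not reported here.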

Additional observations from a re-analysis of the deposited data

How the results depend on the processing

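No paired analysis was possible because shLuc and shKdm5b are represented by 1 library each, which also leaves no replicate to drop. *Kdm5b* was lower in every alternative run, with -4.72 at a pseudocount of 1, -4.86 under TMM, -4.84 under DESeq2 size factors and after GC and length correction, and -4.92 under 75th percentile scaling. Of the 10 genes, 5 were called after GC correction, 3 at a fold above 2 and 3 at RPKM above 11, but 1 (*Hmga2*) at an assumed dispersion of 0.04 and 0 at 0.16. Over all symbols the 5702 calls (48.3% of 11804) became 2688 (22.8%) at a fold above 2 and 3740 (32%) after GC and length correction. At RPKM above 11 they were 2678, a similar share (47.6%) of the 5625 symbols above that level. At the dispersions of 0.04 and 0.16 they were 272 (2.3%) and 1 (0.00847%). The split of the 5702 calls was 1921 higher and 3781 lower, against 2864 and 2758 under TMM (47.2% in all) and 2224 and 2084 after GC correction (36.8%). The list counts that follow stand beside these shares. The let-7 machinery count of 11 became 3 after GC and length correction, 2 at a fold above 2, and 0 at both dispersions. The other let-7 targets' count of 12 became 7, 4 and 0 in the same order. The MYC and MAX network count of 11 became 7 under TMM and after GC correction, and 4 after GC and length. It was 6 under DESeq2, for which no share over all symbols was taken, and 6 at RPKM above 11, which fewer genes exceed. At a fold above 2 it was 2, and at the dispersions 1 and 0. The growth gene count of 16 became 8 after GC, 5 after GC and length, 9 at a fold above 2, and 0 at both dispersions.

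The median of the 10 genes, -0.34, became -0.13 under TMM, -0.11 under DESeq2, -0.18 under 75th percentile scaling, -0.0501 after GC, and reversed to 0.0308 after GC and length. The same correction turned the medians of the let-7 machinery to 0.0318 and of the other let-7 targets to 0.0286, and DESeq2 factors turned the latter to 0.00059. Stricter thresholds call fewer genes by construction. For the rest the cause was not tested. Summing all entries of a symbol changed the *Hmga2* share by 0.229 points instead of 3.08 and that of *Myc* by -1.40 instead of -0.56. Depth was not the limit for these genes, since 3 reads on a 1 kb entry correspond to 0.0384 and 0.0413 RPKM.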

Other observations

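Among genes with 2 or more let-7 8mers in the 3′ UTR, 18 expressed genes were not among the 10, and they were listed after their values were seen. Of these, 3 were called higher, 4 lower, and 11 had a ratio above 0, with a median of 0.21. Over all 11167 genes above the level threshold with a 3′ UTR, 16.0% were called higher and 31.5% lower, with a median of -0.20. A ratio above 0 was found in 5708 of the 14773 symbols with a mean above 0.1 RPKM. *Hif1an*, which hydroxylates the hypoxia factor HIF1A, was the lowest at 13.8 RPKM in shLuc and 4.60 RPKM in shKdm5b, a log2 ratio of -1.57, and remained at -1.04 after GC and length correction. *Fam83g* and *Adrb3*, a beta-adrenergic receptor, stood at -1.27 and -0.75, and the helicase gene *Ddx19b* at -0.67. After GC and length correction these 3 were at -0.35, -0.13 and -0.47, within 1.5-fold. The ceramidase gene *Acer3* stood at 0.89, *Fgd6* at 0.86 and *Zc3hav1l* at 0.70. *Trim6*, with 5 8mers, measured 26.6 and 38.6 RPKM, a log2 ratio of 0.53 that was not called.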
